A study of Homo sapiens with 4 samples.

Results

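Transcripts of 45 genes that repair double-strand breaks and crosslinks in DNA were followed in MDA-MB-231 cells with and without depletion of JARID2. The genes were chosen by name for their role, with earlier results of these data known. All 45 were present among the 25133 rows with a gene symbol. By role, 18 act in homologous recombination and the resection of ends that precedes it, 11 in the Fanconi anaemia pathway, 7 in end joining and 9 in damage signalling and its checkpoint. MDA-MB-231 is a human triple-negative breast cancer line. The 2 shJARID2 libraries came from cells infected with lentivirus carrying a hairpin against JARID2. The 2 shSCR libraries came from cells infected with lentivirus carrying a scrambled hairpin, with the genotype labelled WT. Both groups thus share lentiviral infection in the presence of Polybrene. The sources used here do not give the number of different hairpins, any selection for infected cells or the time after infection. Whether a group's 2 libraries stem from separate cultures is not stated either. The p-values then measure only how far these libraries spread, which may be technical.

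Cells mend a double-strand break mainly by 2 routes. In end joining, the Ku heterodimer caps the broken ends, recruits the kinase DNA-PKcs, and the ends are ligated. In homologous recombination, the MRE11-RAD50-NBN complex and CtIP trim the ends, and BRCA1-BARD1, PALB2 and BRCA2 prepare the resulting single strand for pairing, so that the sister chromatid can serve as template, which confines this route to S and G2 phase. Fanconi proteins unhook crosslinks between the strands at stalled replication forks and hand the resulting break to recombination, while ATM and ATR signal the damage to the checkpoint kinases. Many breast cancer susceptibility genes belong to these pathways.

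Values are FPKM, fragment counts scaled to gene length and library size, as the authors deposited them. Changes are log2 fold changes of shJARID2 over shSCR of log2(FPKM + 1), so changes of low genes are understated. Calls are those with a limma adjusted p below 0.05, adjusted over all 12455 rows tested, which average 1 FPKM or more in the 4 libraries. JARID2 itself, the accessory subunit that guides Polycomb repressive complex 2 to DNA, measured 3.88 and 3.91 FPKM in shJARID2, against 10.8 in both shSCR libraries (log2 fold change -1.27, SE 0.059, adjusted p = 0.0014). The steps between low values gave depths of 12.9 and 12.8 M reads in shJARID2 and of 15.5 and 16.1 M reads in shSCR (M, 1e6). Reads per member and library ranged between 106, for FANCF, and 20964, with a median of 833. Of 4 markers looked for in this line, CD44, AXL and CAV1 were at 68.9 FPKM or more in every library, whereas VIM, the mesenchymal filament gene, was at 2.10 and 2.77 FPKM in shJARID2 and 3.54 and 4.20 in shSCR. Other annotated genes, VIM-AS1 among them, overlap 24.4% of the exon bases of VIM. Whether this overlap bears on its low value was not tested, and the level of its transcript stays uncertain. Of 6 luminal and HER2 markers, ESR1, PGR and CDH1 were at 0.203 FPKM or less and ERBB2, KRT8 and KRT18 at 6.04 to 8.54 in shJARID2 and 12.8 to 15.7 in shSCR. All 7 markers of other cell types were at 0.837 FPKM or less. Across all rows tested, changes followed the GC content of transcripts (Spearman's rho -0.67 over 12056 rows, which are not independent replicates). Each change is therefore also given GC-corrected, that is, after this trend was removed from each library.

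In shJARID2, transcripts of BARD1, FANCL, MRE11, BRCA2, BRIP1 and CHEK1 rose both as measured and GC-corrected. Under both measures those of XRCC6, MDC1, PARP1, FANCG, RAD54L, TP53BP1, RNF168 and PRKDC fell. Some of these calls were lost when a library was left out, as given for each gene below. The share of all rows called under both measures is not given here. All changes were moderate. On the log2(FPKM + 1) scale none of the 45 genes, all of which passed the filter, reached 2-fold, against 9.98% of all rows tested. A change of 1.5-fold was reached by 9 of the 45, against 32.4% of all rows. In plain FPKM the mean of FANCG in shJARID2 was 0.475 times that in shSCR. As measured, 18 genes (40%) rose and 9 (20%) fell, against 28.0% and 31.6% of all rows tested, so that 27 of 45 were called, against 59.7% of all rows. The median log2 fold change of the 45 was 0.19, against -0.02 over all rows. GC-corrected, 8 genes (17.8%) were higher and 13 (28.9%) lower, against 22.7% and 21.5% of all rows (44.2% in either direction). The median was then -0.05, against 0.00 over all rows. More genes were thus higher than lower as measured and more lower than higher GC-corrected. None of the 45 was called in opposite directions, while 1 of 80 other listed pathway genes and 1 of 8 proliferation markers were. The share of all rows called in opposite directions is not given here. Both shJARID2 values lay above both shSCR values in 28 genes (62.2%) and below in 14 (31.1%), against 39.8% and 43.1% of all rows, 82.9% in all. When either shSCR library was left out, fewer of the 45 were called higher and fewer lower, under both measures. Such fits hold fewer samples for every row, and the share of all rows called in them is not given here. In bulk RNA, more cells in the phases that express a gene and more RNA per cell cannot be told apart.

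**Figure D1:**
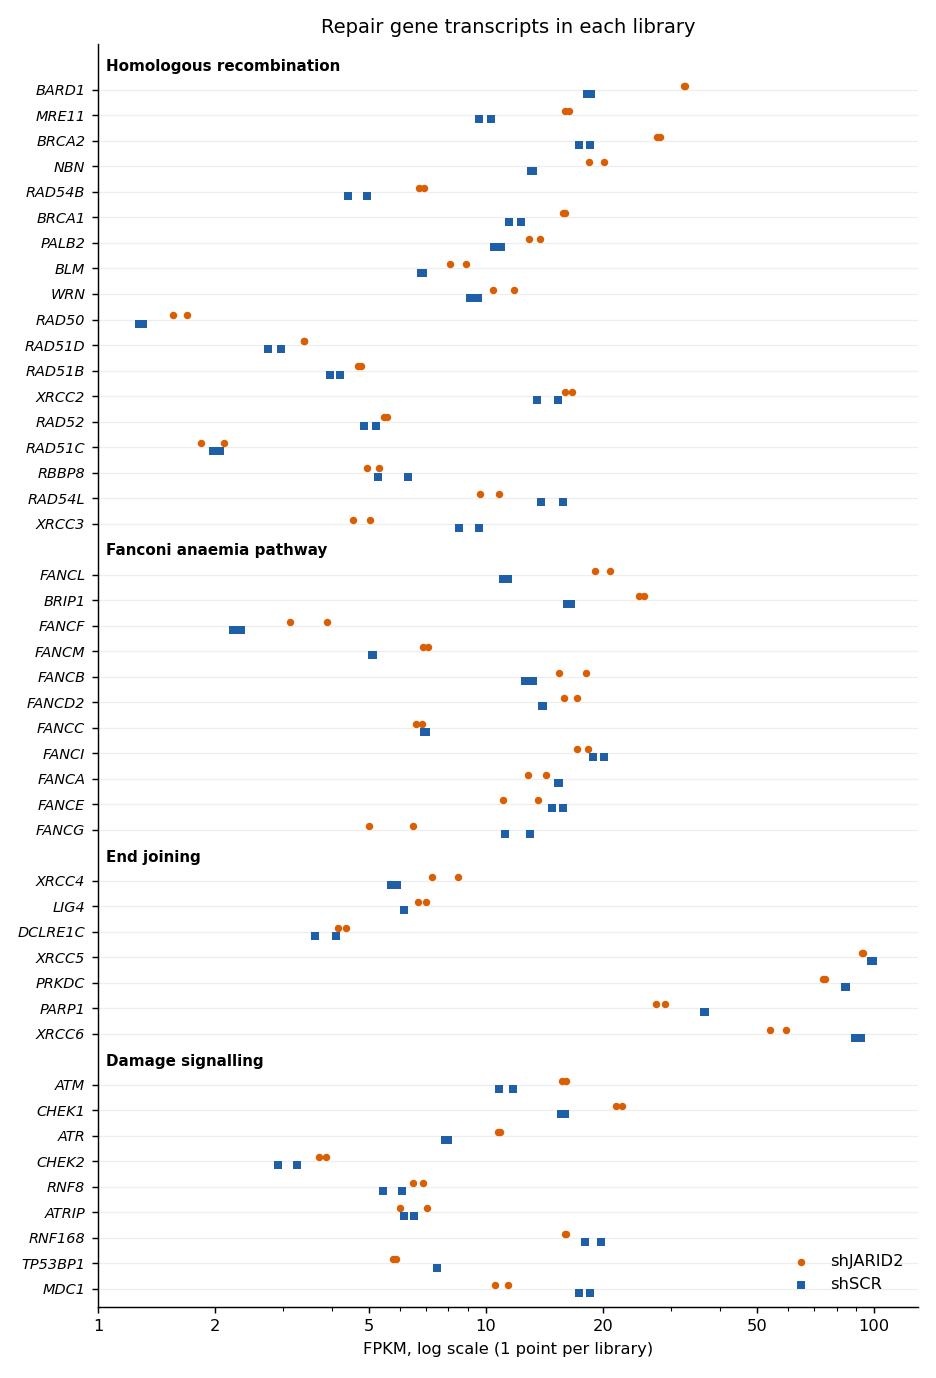
FPKM of the 45 genes on a log axis, 1 point per library, with shJARID2 above shSCR on each row and genes ordered within their pathway by the measured log2 fold change. The groups lie apart for 42 genes, with shJARID2 above in 28 and below in 14, and overlap for RAD51C, RBBP8 and ATRIP.

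**Figure D2:**
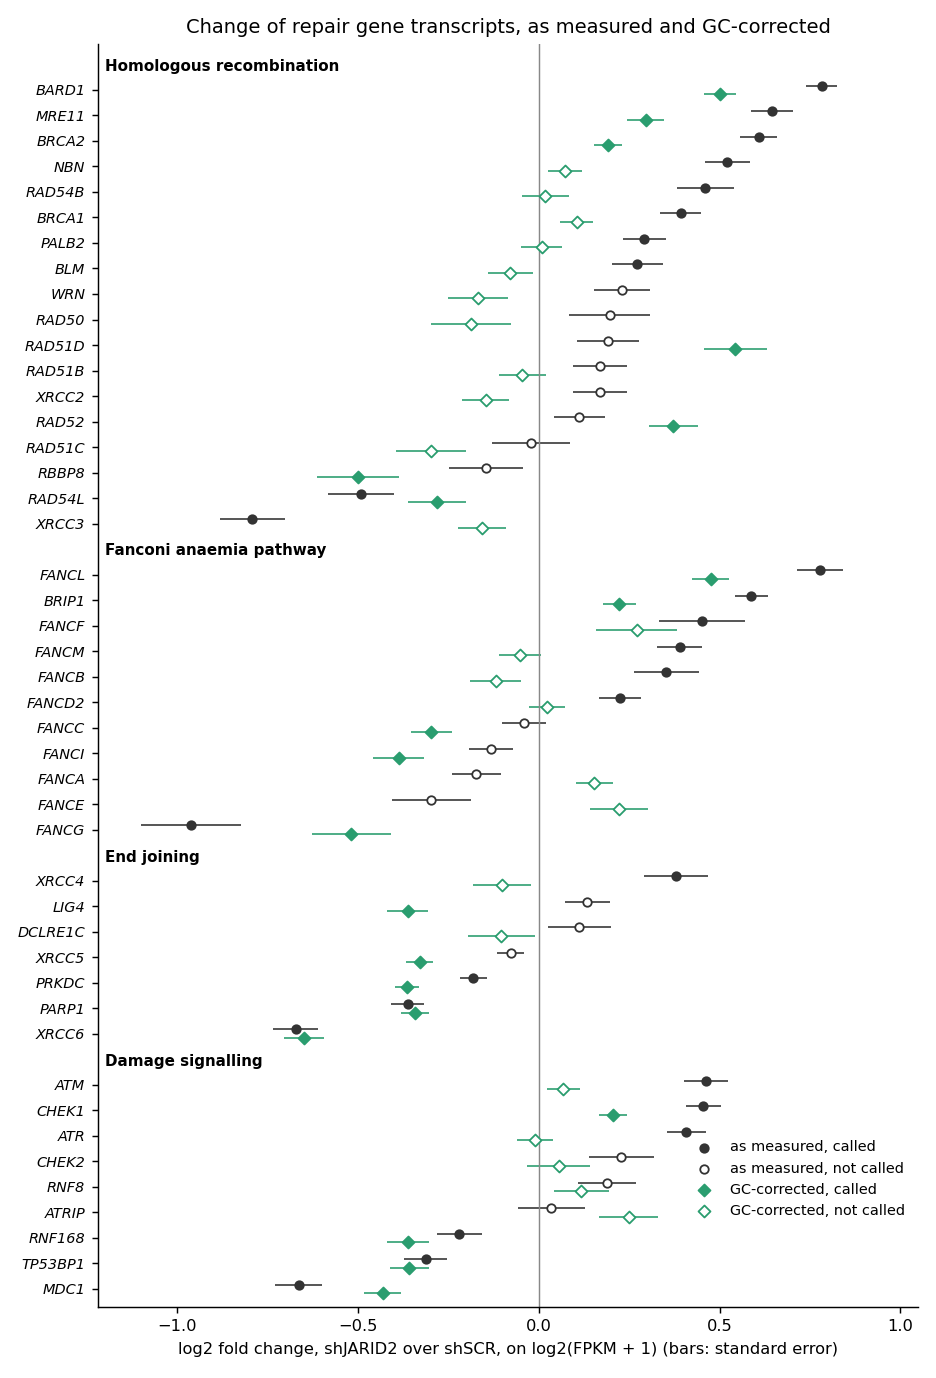
Log2 fold change of each gene, shJARID2 over shSCR, as measured (dark circles) and GC-corrected (green diamonds), with bars for the standard error and filled symbols for an adjusted p below 0.05. Most measured values in homologous recombination lie right of 0, and 5 of 7 GC-corrected values in end joining are called lower.

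The promoters of BARD1 and BRIP1, which rose, and of XRCC6 and MDC1, which fell, show how different the start regions of these genes are. They were picked after their values were seen, as genes called under both measures with 1 RefSeq promoter window, 250 bases before to 50 after the annotated start, on GRCh38.p14. The windows are chr2:214809634-214809933 on the minus strand for BARD1, chr17:61863479-61863778 on the minus strand for BRIP1, chr22:41621045-41621344 on the plus strand for XRCC6 and chr6:30717232-30717531 on the minus strand for MDC1. Capitals mark matches on either strand to the CCAAT box (CCAAT), the GC box (GGGCGG), the ETS site (CCGGAAG), the E2F site (TTTCGCGC or TTTGGCGC) and the cell cycle homology region (TTTGAA).
BARD1: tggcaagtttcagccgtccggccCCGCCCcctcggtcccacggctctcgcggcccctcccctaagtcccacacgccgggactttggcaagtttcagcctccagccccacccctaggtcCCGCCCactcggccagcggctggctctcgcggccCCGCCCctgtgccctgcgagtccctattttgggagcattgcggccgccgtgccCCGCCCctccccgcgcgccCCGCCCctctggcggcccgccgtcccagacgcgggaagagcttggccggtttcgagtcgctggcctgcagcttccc
BRIP1: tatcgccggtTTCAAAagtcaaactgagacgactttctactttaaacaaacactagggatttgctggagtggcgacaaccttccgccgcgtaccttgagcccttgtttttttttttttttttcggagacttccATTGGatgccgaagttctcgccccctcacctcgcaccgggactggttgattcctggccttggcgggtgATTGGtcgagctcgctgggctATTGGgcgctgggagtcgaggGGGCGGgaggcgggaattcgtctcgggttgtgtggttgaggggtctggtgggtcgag
XRCC6: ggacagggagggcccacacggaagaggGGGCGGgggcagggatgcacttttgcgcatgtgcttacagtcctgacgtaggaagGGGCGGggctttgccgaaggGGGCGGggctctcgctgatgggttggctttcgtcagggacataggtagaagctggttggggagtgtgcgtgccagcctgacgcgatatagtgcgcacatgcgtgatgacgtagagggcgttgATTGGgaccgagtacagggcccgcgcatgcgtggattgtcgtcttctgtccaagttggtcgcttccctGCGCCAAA
MDC1: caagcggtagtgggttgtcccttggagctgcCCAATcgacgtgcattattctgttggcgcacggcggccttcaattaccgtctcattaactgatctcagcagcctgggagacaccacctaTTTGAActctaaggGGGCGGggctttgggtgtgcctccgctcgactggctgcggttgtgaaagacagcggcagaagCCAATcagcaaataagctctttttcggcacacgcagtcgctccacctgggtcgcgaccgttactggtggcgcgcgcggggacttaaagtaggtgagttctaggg
The BARD1 window, with a GC content of 73.7%, held 5 GC boxes and none of the other motifs. The BRIP1 window (55.3% GC) held 3 CCAAT boxes, 1 GC box and 1 cell cycle homology match. In the XRCC6 window (62.0% GC) there were 3 GC boxes, 1 CCAAT box and 1 E2F match, and in the MDC1 window (57.3% GC) 2 CCAAT boxes, 1 GC box and 1 cell cycle homology match. Over the 56 windows of the 39 members with an entry, 50% held a CCAAT box, 69.6% a GC box and 32.1% an ETS match, against 34.6%, 45% and 10.3% of all 35116 windows. An E2F match was in 3.57% of member windows and 1.15% of all windows, and a cell cycle homology match in 7.14% and 15.2%. The median GC content was 64.5% in member windows and 58.7% in all, several windows can belong to 1 gene, and a match is not evidence of a bound site.

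Homologous recombination genes were more often higher than lower as measured. Of 18, 8 rose (44.4%, against 28.0% of all rows) and 2 fell (11.1%, against 31.6%), with a median log2 fold change of 0.21. GC-corrected, 5 were higher (27.8%, against 22.7%), 2 lower (11.1%, against 21.5%) and 11 not called, with a median of -0.02. Calls varied with the libraries used: fewer were made, under both measures, when either shSCR library was left out. GC-corrected, fewer were also made without shJARID2 replicate 1. These fits hold fewer samples for every row.

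BARD1, which pairs with BRCA1 to form a ubiquitin ligase, had the largest measured log2 fold change of the 45, while by the ratio of mean FPKM FANCL (1.78) was above it. The gene lies on chromosome 2 from 214725646 to 214809711 on the minus strand of GRCh38. It measured 32.3 and 32.5 FPKM in shJARID2, against 18.2 and 18.6 in shSCR, so the groups were far apart and 1.76 times different on average. BARD1 rose by 0.78 on the log2 scale (SE 0.042, adjusted p = 0.0014), and by 0.50 GC-corrected (adjusted p = 0.0028). Both calls held without any single library. Its partner BRCA1 was at 15.8 and 15.9 FPKM in shJARID2 and at 12.3 and 11.4 in shSCR. BRCA1 rose by 0.39 (adjusted p = 0.0056), but was at 0.10 GC-corrected, where it did not pass (adjusted p = 0.14). The level of BARD1 relative to BRCA1 was 2.05 and 2.04 in shJARID2, against 1.48 and 1.63 in shSCR.

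BRCA2, the tumour suppressor that acts on the resected single strand, measured 28.1 and 27.6 FPKM in shJARID2, against 18.5 and 17.4 in shSCR. Every shJARID2 value lay above every shSCR value, with a log2 fold change of 0.61 (SE 0.052, adjusted p = 0.0018) and of 0.19 GC-corrected (adjusted p = 0.020). The GC-corrected call of BRCA2 was lost whichever library was left out. PALB2, the bridge between BRCA1 and BRCA2, was at 13.7 and 12.9 FPKM in shJARID2 and 10.5 and 10.9 in shSCR. Its rise of 0.29 (adjusted p = 0.015) came to 0.01 GC-corrected (adjusted p = 0.93).

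Among the genes of end resection, MRE11, the nuclease, rose the most. MRE11 measured 15.9 and 16.3 FPKM in shJARID2, against 10.3 and 9.61 in shSCR, with a log2 fold change of 0.64 (SE 0.058, adjusted p = 0.0020) and of 0.29 GC-corrected (adjusted p = 0.013). Without either shSCR library the GC-corrected call of MRE11 was lost. NBN, which tethers the complex to ATM, was at 20.1 and 18.4 FPKM in shJARID2 and 13.2 and 13.0 in shSCR. The groups were apart and NBN rose by 0.52 (adjusted p = 0.0034), against 0.07 GC-corrected (adjusted p = 0.27). RAD50, the ATPase of the complex, was listed far lower, at 1.56 and 1.69 FPKM in shJARID2 and 1.31 and 1.28 in shSCR. It did not pass under either measure (log2 fold change 0.20, adjusted p = 0.20, and -0.19 GC-corrected). Of the exon bases of RAD50, 79.7% also lie in exons of other annotated genes, and the sources used here do not say how shared reads were counted. RBBP8, which encodes CtIP, the cofactor of MRE11, had overlapping groups as measured, at 4.94 and 5.29 FPKM in shJARID2 and 5.27 and 6.31 in shSCR. It was called lower only GC-corrected (-0.50, SE 0.11, adjusted p = 0.025, against -0.15 and adjusted p = 0.27 as measured), a call lost without shSCR replicate 2 or shJARID2 replicate 1.

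RAD51B, RAD51C, RAD51D, XRCC2 and XRCC3 encode related proteins that act together in 2 complexes on the single strand, and of these 5 only XRCC3 was called as measured. XRCC3 measured 4.55 and 5.04 FPKM in shJARID2, against 8.50 and 9.57 in shSCR, and fell by 0.79 on the log2 scale (SE 0.089, adjusted p = 0.0030). It was at -0.16 GC-corrected (adjusted p = 0.12), and 76.7% of its exon bases overlap exons of KLC1 on the opposite strand. RAD51B, RAD51C and XRCC2 were called under neither measure, with log2 fold changes of 0.17, -0.02 and 0.17 as measured. Their GC-corrected values were -0.05, -0.30 and -0.15. RAD51D was at 3.40 FPKM in both shJARID2 libraries and at 2.97 and 2.74 in shSCR. It was called higher only GC-corrected, at 0.54 (adjusted p = 0.011) against 0.19 as measured (adjusted p = 0.12), and lost that call without shSCR replicate 2.

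The annealing and motor proteins diverged. RAD54L, the motor that drives strand exchange, measured 9.64 and 10.8 FPKM in shJARID2, against 13.8 and 15.8 in shSCR, and fell by 0.49 (SE 0.092, adjusted p = 0.012; -0.28 and adjusted p = 0.045 GC-corrected). The measured call of RAD54L was lost without shSCR replicate 2, the GC-corrected one whichever library was left out, and 25.1% of its exon bases lie in exons of other genes. Its relative RAD54B was at 6.90 and 6.72 FPKM in shJARID2 and 4.94 and 4.42 in shSCR, a rise of 0.46 (adjusted p = 0.0088) that came to 0.02 GC-corrected (adjusted p = 0.84) and was lost without shSCR replicate 2. Of the exon bases of RAD54B, 59.1% also lie in exons of FSBP on the same strand. RAD52, which anneals single strands, was at 5.55 and 5.46 FPKM in shJARID2 and 4.85 and 5.19 in shSCR, called only GC-corrected (0.37, adjusted p = 0.014, against 0.11 and adjusted p = 0.23 as measured). That call was kept without shJARID2 replicate 2 and lost without any of the other 3 libraries. Of the RecQ helicases, BLM rose by 0.27 as measured (adjusted p = 0.029) and was at -0.08 GC-corrected. The call of BLM, like that of PALB2, was kept only when the library left out was shJARID2 replicate 2. WRN did not pass under either measure (0.23, adjusted p = 0.060, and -0.17 GC-corrected).

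The Fanconi genes did not move as one. As measured 6 of 11 rose (54.5%, against 28.0% of all rows) and FANCG fell (9.09%, against 31.6%), with a median of 0.22. GC-corrected, 2 were higher (18.2%, against 22.7%) and 3 lower (27.3%, against 21.5%), with a median of 0.02, shares near those of all rows. Fewer Fanconi genes rose as measured when either shSCR library or shJARID2 replicate 1 was left out. Without shJARID2 replicate 2, more fell. GC-corrected, fewer were higher when either shSCR library or shJARID2 replicate 2 was left out, and fewer were lower without either shSCR library. These fits hold fewer samples for every row.

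In the core complex, which ubiquitinates the FANCD2-FANCI pair, the catalytic subunit and one of its scaffolds moved apart. FANCL, the ubiquitin ligase subunit, measured 20.8 and 19.0 FPKM in shJARID2, against 11.4 and 11 in shSCR. The groups were well apart, with a log2 fold change of 0.78 (SE 0.064, adjusted p = 0.0017) and of 0.48 GC-corrected (adjusted p = 0.0040), and both calls held without any single library. Genes on the opposite strand, VRK2 among them, overlap 19.7% of FANCL's exon bases. FANCG, a scaffold subunit on chromosome 9 from 35073835 to 35080016 on the minus strand of GRCh38, measured 5.0 and 6.48 FPKM in shJARID2, against 11.2 and 13.0 in shSCR. This was the largest measured fall of the 45 (log2 fold change -0.96, SE 0.14, adjusted p = 0.0054), at -0.52 GC-corrected (adjusted p = 0.021), and the GC-corrected call of FANCG was lost without either shSCR library. The level of FANCL relative to FANCG was 4.17 and 2.94 in shJARID2, against 1.01 and 0.851 in shSCR. Ratios of partners are of FPKM without GC correction, and transcripts of FANCL have a GC content of 41.8%, those of FANCG 57.0%.

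The other core subunits did not hold a call under both measures. FANCB rose by 0.35 and FANCM, which anchors the complex to DNA, by 0.39 as measured, whereas their GC-corrected values were -0.12 and -0.05. FANCF, an adaptor with 106 to 148 reads a library, rose by 0.45 (adjusted p = 0.030) and was at 0.27 GC-corrected (adjusted p = 0.12). FANCA and FANCE had measured values of -0.17 and -0.30 and GC-corrected values of 0.15 and 0.22, none of them called. FANCC was called lower only GC-corrected, at -0.30 (adjusted p = 0.016), with 6.85 and 6.59 FPKM in shJARID2 and 6.91 and 6.99 in shSCR. The measured calls of FANCB, FANCF and FANCD2 were kept only when the library left out was shJARID2 replicate 2, and that of FANCM was lost without either shSCR library. Without either shSCR library the GC-corrected call of FANCC was lost too.

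Downstream of the core complex, FANCD2 measured 17.1 and 15.8 FPKM in shJARID2, against 13.9 and 14.0 in shSCR, a rise of 0.22 (adjusted p = 0.030) that was 0.02 GC-corrected (adjusted p = 0.74). Its partner FANCI was at 17.1 and 18.3 FPKM in shJARID2 and 18.9 and 20.1 in shSCR, called lower only GC-corrected (-0.39, adjusted p = 0.015, against -0.13 as measured), and not without shSCR replicate 2. The level of FANCD2 relative to FANCI was 1.0 and 0.866 in shJARID2, against 0.739 and 0.694 in shSCR. BRIP1, the helicase that binds BRCA1, measured 24.8 and 25.5 FPKM in shJARID2, against 16.6 and 16.2 in shSCR. BRIP1 rose by 0.59 (SE 0.046, adjusted p = 0.0017), and by 0.22 GC-corrected (adjusted p = 0.020), a call kept only when the library left out was shJARID2 replicate 1.

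Among end joining genes falls outnumbered rises. Of 7, 3 fell (42.9%, against 31.6% of all rows) and XRCC4 rose (14.3%, against 28.0%) as measured, with a median of -0.08. GC-corrected, 5 were lower (71.4%, against 21.5%) and none higher (against 22.7%), with a median of -0.34. At an unadjusted p below 0.05 none was higher GC-corrected either. XRCC5, XRCC6 and PRKDC had the 3 highest levels among the 45 in every library, on the FPKM scale.

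XRCC6, the Ku70 subunit of the end-capping heterodimer, lies on chromosome 22 from 41621119 to 41664048 on the plus strand of GRCh38. XRCC6 measured 53.9 and 59.4 FPKM in shJARID2, against 89.3 and 92.3 in shSCR. The groups were far apart, with a log2 fold change of -0.67 (SE 0.062, adjusted p = 0.0020) that was nearly the same GC-corrected (-0.65, adjusted p = 0.0027) and was called without any single library. The annotation lists 5 pseudogene copies of XRCC6, with which reads may be shared. XRCC5, the Ku80 subunit, was at 93.6 and 92.9 FPKM in shJARID2 and 98.0 and 99.0 in shSCR. XRCC5 did not pass as measured (-0.08, SE 0.037, adjusted p = 0.14; 95% interval from -0.18 to 0.02), but was called lower GC-corrected (-0.33, adjusted p = 0.0044). The level of XRCC6 relative to XRCC5 was 0.576 and 0.639 in shJARID2, against 0.911 and 0.932 in shSCR.

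PRKDC, the DNA-PK catalytic subunit, measured 73.7 and 74.8 FPKM in shJARID2, against 84.6 and 84.2 in shSCR. Its fall was small (-0.18, SE 0.038, adjusted p = 0.015; GC-corrected -0.37, adjusted p = 0.0029), and the measured call of PRKDC was kept only when the library left out was shJARID2 replicate 2. PARP1, which marks breaks with poly(ADP-ribose) and serves the alternative end joining route, measured 27.5 and 28.8 FPKM in shJARID2, against 36.3 and 36.6 in shSCR. PARP1 fell by 0.36 (SE 0.046, adjusted p = 0.0040), and by 0.34 GC-corrected (adjusted p = 0.0045), and both calls held without any single library. The ligation pair showed no fall as measured: XRCC4 rose by 0.38 (adjusted p = 0.022) and LIG4, the ligase, was at 0.13 (adjusted p = 0.13). GC-corrected, XRCC4 was at -0.10 and was not called, and LIG4 was lower, at -0.36 (adjusted p = 0.010), although its FPKM were 7.01 and 6.69 in shJARID2 and 6.16 and 6.14 in shSCR. The call of XRCC4 was kept only when the library left out was shJARID2 replicate 2, and the GC-corrected one of LIG4 was lost without either shSCR library. LIG4 transcripts have a GC content of 35.7%, the lowest of the 45. DCLRE1C, the Artemis nuclease, was called under neither measure (0.11 and -0.10).

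**Figure D3:**
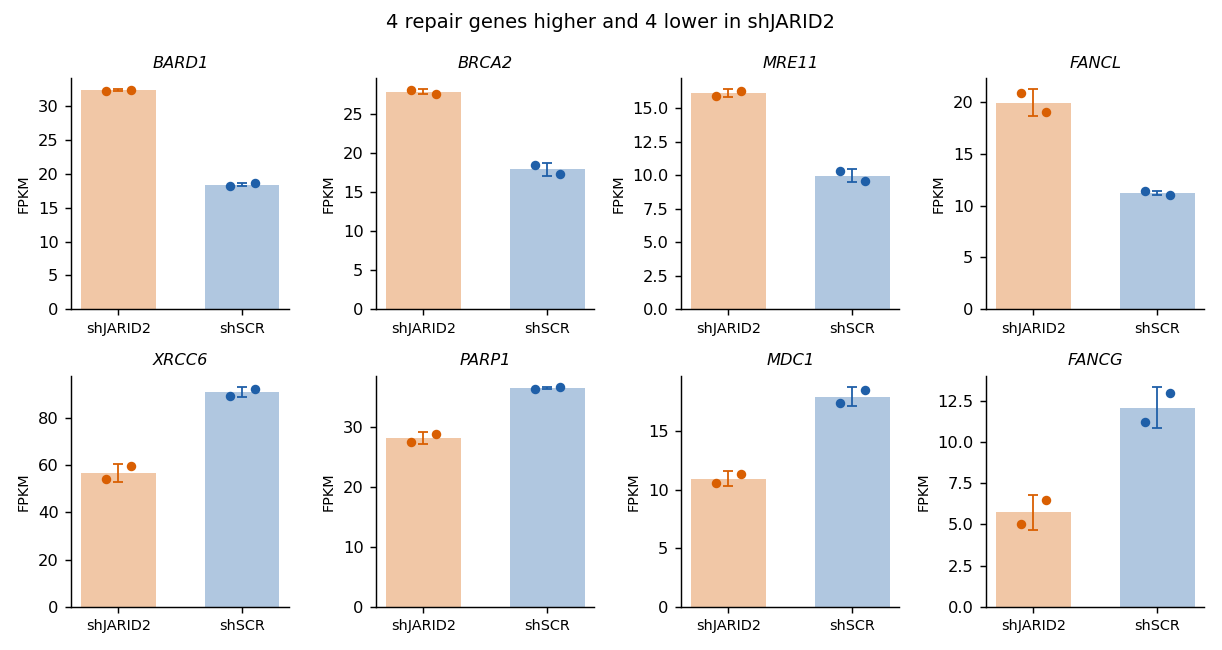
FPKM of 4 genes that rose (upper row) and 4 that fell (lower row), with bars for the mean, error bars for the SD of 2 libraries and a point per library, shJARID2 left of shSCR. In each panel both shJARID2 points lie on one side of both shSCR points, as for XRCC6 at 53.9 and 59.4 in shJARID2 and 89.3 and 92.3 in shSCR.

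Among damage signalling genes, ATM, ATR and CHEK1 rose and MDC1, TP53BP1 and RNF168 fell as measured, while CHEK2, RNF8 and ATRIP were not called. These 3 of 9 in each direction (33.3%) lie near the 28.0% and 31.6% of all rows, and the median was 0.19. GC-corrected, CHEK1 was higher (11.1%, against 22.7%) and MDC1, TP53BP1 and RNF168 lower (33.3%, against 21.5%), with a median of 0.06. Without either shSCR library 1 gene, MDC1, fell as measured, and the GC-corrected call of CHEK1 was lost without shSCR replicate 1, shSCR replicate 2 or shJARID2 replicate 1.

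CHEK1, the effector kinase of ATR, measured 22.4 and 21.6 FPKM in shJARID2, against 15.9 and 15.6 in shSCR. The groups were apart, with a log2 fold change of 0.46 (SE 0.048, adjusted p = 0.0026) and of 0.20 GC-corrected (adjusted p = 0.015). CHEK2, the effector of ATM, did not pass under either measure (0.23, adjusted p = 0.087, and 0.06 GC-corrected), with 3.86 and 3.71 FPKM in shJARID2 and 2.91 and 3.27 in shSCR. ATM, the kinase activated by breaks, was at 16.1 and 15.7 FPKM in shJARID2, against 11.7 and 10.8 in shSCR. ATM rose by 0.46 (adjusted p = 0.0044), and was at 0.07 GC-corrected (adjusted p = 0.29). ATR, activated by single-stranded DNA, was at 10.8 FPKM in both shJARID2 libraries, against 7.98 and 7.82 in shSCR. ATR rose by 0.41 (adjusted p = 0.0044) and was at -0.01 GC-corrected. Its obligate partner ATRIP had overlapping groups and was called under neither measure (log2 fold change 0.03, adjusted p = 0.77, and 0.25 GC-corrected).

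MDC1, the scaffold that reads phosphorylated H2AX at breaks, is on chromosome 6 from 30699807 to 30717889 on the minus strand of GRCh38. MDC1 measured 10.5 and 11.4 FPKM in shJARID2, against 17.4 and 18.5 in shSCR. The groups were far apart (log2 fold change -0.66, SE 0.065, adjusted p = 0.0023; GC-corrected -0.43, adjusted p = 0.0049), and both calls held without any single library. RNF8, the ubiquitin ligase that MDC1 recruits, was called under neither measure (0.19 and 0.12). RNF168, the ligase that extends the RNF8 mark, was at 16.1 and 15.9 FPKM in shJARID2 and 19.7 and 17.9 in shSCR. RNF168 fell by 0.22 (adjusted p = 0.038) and by 0.36 GC-corrected (adjusted p = 0.0097). The measured call was lost whichever library was left out, while the GC-corrected one held without any single library. TP53BP1, which is recruited by that mark and shields ends from resection, was at 5.87 and 5.77 FPKM in shJARID2, against 7.48 and 7.46 in shSCR. TP53BP1 fell by 0.31 (SE 0.060, adjusted p = 0.012) and by 0.36 GC-corrected (adjusted p = 0.0092), but was called under neither measure when an shSCR library was left out. Of its exon bases, 28.7% overlap TUBGCP4 on the opposite strand.

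The genes that rose had GC-poorer transcripts than the genes that fell. Transcripts of the 18 genes that rose had a median GC content of 39.9% (36.2% to 45.4%), those of the 9 that fell 49.3% (45.3% to 60.6%) and those not called 43.9%. The median over the 45 was 43.4%, below the 48.2% of all rows tested. Across the 45 genes, which share the same 4 libraries, Spearman's rho between GC content and measured log2 fold change was -0.68 (Pearson's r -0.71). Over all rows rho was -0.67. With the correction the rho of the 45 was -0.02, as the correction removes this trend by design. Coding length differed less: the median was 3144 bases in genes that rose and 2241 in those that fell, with a rho of 0.10 against log2 fold change. With the correction 12 of 18 rises and 1 of 9 falls, that of XRCC3, were no longer called. Newly called were 2 genes higher and 5 lower. The share of all rows that lost or gained a call with the correction is not given here. XRCC6, PARP1 and TP53BP1 have transcripts near the average GC content (49.3%, 49.2% and 48.0%) and moved by no more than 0.05 with the correction.

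**Figure D4:**
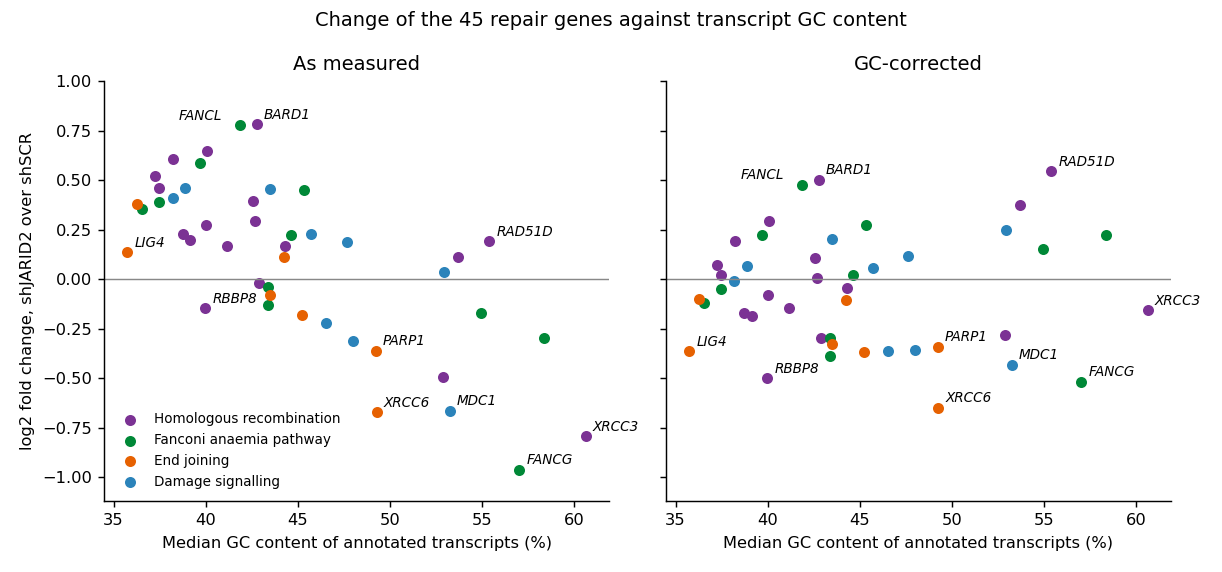
Log2 fold change of the 45 genes, shJARID2 over shSCR, against the median GC content of their annotated transcripts, as measured (left) and GC-corrected (right), with 1 point per gene coloured by pathway. The measured values fall with GC content (rho -0.68, against -0.67 over all rows), XRCC3 and FANCG standing lowest at the GC-rich end. The corrected values do not (rho -0.02), as the correction removes this trend by design.

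The remaining listed genes of the 4 pathways rose as often as they fell. Of 89 listed, 88 were found and 80 tested: 29 rose and 29 fell (36.3% each, against 28.0% and 31.6% of all rows), with a median of -0.01. GC-corrected, 16 were higher and 20 lower (20% and 25% of the 80, against 22.7% and 21.5% of all rows). In homologous recombination 10 of 26 rose (38.5%, against 28.0% of all rows) and 8 fell (30.8%, against 31.6%). SEM1, the small partner of BRCA2, rose by 1.36 (7.57 ± 0.599 FPKM in shJARID2 and 2.34 ± 0.231 in shSCR, SD, n = 2 each; GC-corrected 1.18), and RPA3, a subunit of the single-strand binding protein, by 1.32 (20.4 ± 2.57 and 7.56 ± 0.223; GC-corrected 1.12). RECQL4 (-0.90), a RecQ helicase, and FBXO18 (-0.78), the helicase FBH1, fell as measured, RECQL4 not being called GC-corrected (-0.06) and FBXO18 having no GC value.

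In the Fanconi list 7 of 17 rose (41.2%, against 28.0% of all rows) and 6 fell (35.3%, against 31.6%). CENPS, a FANCM partner, rose by 1.47 (SE 0.30, GC-corrected 1.36), at 4.71 and 3.95 FPKM in shJARID2 and 0.445 and 1.56 in shSCR. Those shSCR values rest on 12 and 44 reads. The measured call of CENPS was lost without shJARID2 replicate 1, and 64.7% of its exon bases lie in other genes. USP1, which removes ubiquitin from FANCD2, rose by 0.62 (GC-corrected 0.31). ERCC1 (-0.75, GC-corrected -0.21) fell under both measures and FAAP100 (-0.92) as measured only. The GC-corrected calls of USP1 and ERCC1 were lost without either shSCR library, that of USP1 also without shJARID2 replicate 1 and that of CENPS without either shJARID2 library. Among other end joining genes 3 of 11 rose (27.3%, against 28.0% of all rows) and 6 fell (54.5%, against 31.6%). The polymerase POLM (-1.03, GC-corrected -0.35) and the ligase LIG3 (-0.66, GC-corrected -0.53) fell under both measures, the GC-corrected calls being lost without either shSCR library and, for POLM, without shJARID2 replicate 1, whereas the call of XRCC1 (-0.70) ended with the correction. Of other signalling genes, 9 of 26 rose and 9 fell (34.6% each, against 28.0% and 31.6% of all rows). GC-corrected, 11 were lower and 5 higher (42.3% and 19.2% of the 26, against 21.5% and 22.7% of all rows). Not all of the 26 have a GC value. H2AFX, the histone that MDC1 binds, fell by 1.13 as measured but was at -0.23 GC-corrected and not called, as was RAD9A (-0.82 and -0.10), while TIPIN (0.67, GC-corrected 0.44) and CDC25C (0.66, GC-corrected 0.53) rose, the GC-corrected call of TIPIN being lost without either shSCR library. As a comparison, excision and mismatch repair genes gave 8 rises (27.6%, against 28.0% of all rows) and 6 falls (20.7%, against 31.6%) among 29, with a median of 0.01.

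Many repair genes are transcribed in S and G2 phase. Of 8 proliferation markers, 4 rose (50%, against 28.0% of all rows) and 3 fell (37.5%, against 31.6%) as measured. The markers' log2 fold changes lay between -0.43 and 1.02. Of the markers, PCNA and CCNA2 were picked after their values were seen. PCNA was at 179 and 175 FPKM in shJARID2, against 84.6 and 88.5 in shSCR, whereas CCNA2 was at 46.9 and 47.5 in shJARID2 and 63.7 and 60.5 in shSCR. GC-corrected, 2 markers were higher (25%, against 22.7% of all rows) and 3 lower (37.5%, against 21.5%). Their part in the changes of the repair genes was not tested.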

How the data were processed

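RNA of 2 shJARID2 and 2 shSCR libraries was taken up in Trizol, as the labels' protocols say. The submitters' processing notes name Trimmomatic, HISAT2, SAMtools and featureCounts. The sources used here do not give versions, genome build, annotation, strand setting or the rules for shared reads. The authors deposited FPKM, per the file headers, in 1 file of 85553 rows per library. Rows without a symbol (60420, holding 21.1% to 24.5% of all FPKM) were left out.

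Depth was read from FPKM multiplied by GENCODE 29 exon length, matched by symbol for 24239 rows. In each library, 96.0% to 96.4% of values of at most 20 reads were whole to within 0.05. Coordinates, overlaps, coding lengths and GC content (median of a gene's transcripts) come from the same annotation on GRCh38.

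Rows with a mean of at least 1 FPKM were log-transformed as log2(FPKM + 1) and fitted by limma 3.58.1 (R 4.3.3), whose prior variance followed mean expression (2 residual and 2.36 prior degrees of freedom), with Benjamini-Hochberg adjustment. For GC-corrected values, each library's deviations from the gene means were smoothed against GC content by loess (span 0.3, degree 2), and the fitted curve was subtracted, over 12056 rows (96.8%). This removes any change that follows GC content, whatever its source. The steps were tested on simulated data. Tables were handled in Python 3.11.15. Lists were described by counts without a set test. Members and lists were chosen with earlier results of these data known; the named genes were all members, JARID2, markers of the line and up to 4 called genes with the largest change per list of other pathway genes, apart from items not reported here. Alternatives were 2 other scalings, a pseudocount of 0.1, other filters, limma-voom on recovered reads, a replicate term and each library left out. Promoter windows are from RefSeq.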

Additional observations from a re-analysis of the deposited data

How the results depend on the processing

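With 2 libraries a group, the calls of single genes depend most on the shSCR libraries and on GC content. Counts are given in the order higher and lower. For all members they were 18 and 9 as measured, 8 and 13 with GC correction, and over single libraries left out 10 to 18 and 5 to 10. For homologous recombination they were 8 and 2, 13 higher with limma-voom, 5 higher with GC correction, and over libraries left out 5 to 8 and 1 to 2. For the Fanconi genes they were 6 and 1, 3 higher with no filter on low values, 3 lower with limma-voom, 2 lower with a replicate block, 2 and 3 with GC correction, and over libraries left out 2 to 6 and 1 to 3. For end joining they were 1 and 3, 0 higher with no filter on low values, 0 and 5 with GC correction, and over libraries left out 0 to 1 and 2 to 3. For damage signalling they were 3 and 3, 5 higher with limma-voom, 1 higher with GC correction, and over libraries left out 3 and 1 to 2. The replicate block with GC correction gave the GC-corrected counts again (8 higher in all, 5 and 2 and 0 and 1 by pathway, and 3 Fanconi and 5 end joining genes lower). GC-corrected counts over libraries left out, an alternative chosen after seeing the data, were 2 to 6 and 6 to 13 in all, 1 to 4 and 0 to 2 for homologous recombination, 1 to 3 and 0 to 3 for Fanconi genes and 0 to 1 and 2 to 3 for signalling. With GC correction, alone or with the replicate block, BLM (-0.079), FANCB (-0.12), FANCM (-0.053), XRCC4 (-0.10), LIG4 (-0.36) and ATR (-0.010) changed sign. So did RAD51B, XRCC2, WRN, RAD50, FANCA, FANCE and DCLRE1C, which were called under neither measure. Apart from GC correction, the share of all rows called under these alternatives is not given here. The counts therefore do not show whether a shift is particular to the repair genes. Beyond fewer samples in the fits that leave one out, the cause of the shifts in counts and signs was not tested. JARID2 was called lower under every alternative run. Differences between replicates 1 and 2 correlated at 0.03 between the groups. This value cannot tell whether same-numbered libraries were handled together, which the sources used here do not state. As measured, the replicate block changed 1 member's call, that of FANCE, which it called lower. Depth limits FANCF most, with 106 to 148 reads a library.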
